A study of Mus musculus with 37 samples.

Results

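The late phase of the response of Bmal1-deficient macrophages to Kdo2 lipid A (KLA) was examined by setting the RNA-seq library of Arntl-/- cells treated for 48 h against that of Arntl-/- cells treated for 24 h. All 24016 RefSeq genes of the expression table were compared, with 1 library at each time, and these 2 libraries were among 8 RNA-seq libraries in a series of 37 samples. At least 1 read was found in either library for 15533 genes, and 8483 genes had 0 reads in both. The 10722 genes with at least 100 reads summed over the pair (44.6% of the table) were used for counts and medians.

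The cells were bone marrow-derived macrophages (BMDMs), grown by culturing marrow for 6 days with M-CSF, from male mice 6 to 9 weeks old. The strain is labelled C57BL/6J, and the methods give the Arntl-/- line a C57BL/6 background. Arntl-/- mice lack the gene for Bmal1 in every cell of the body, and wild-type (WT) mice served as the comparison, described once as littermates and once as bought C57BL/6J animals. KLA, the lipid A portion of bacterial lipopolysaccharide and an agonist of TLR4, was added for 0, 6, 24 or 48 h, and polyadenylated RNA was sequenced. How many animals or cultures stood behind a library was not given in the sources used here. With 1 library per condition there is no replicate check, no difference was tested and no p-value is given: each value compares 2 libraries, not 2 conditions.

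Bmal1 pairs with Clock or Npas2 to switch on genes that carry an E-box, among them the Per and Cry repressors and the nuclear receptors Rev-erb-alpha and Rev-erb-beta (Nr1d1 and Nr1d2), which in turn act on the clock and on inflammatory genes. TLR4 signals through NF-kB to cytokine genes within hours and through interferon-beta to a second set of genes. M-CSF keeps cultured macrophages dividing, and activation by TLR4 ligands also changes their metabolism, their handling of sterols and their antioxidant defences over the following days.

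Expression is given as scaled FPKM, the deposited value per kb of exon and per 10000000 reads divided by a median-of-ratios size factor, and changes as the log2 of the value plus 0.1 at 48 h minus that at 24 h. A gene is said to have risen or fallen where it changed at least 1.5-fold, and intervals of ratios are exact 95% Clopper-Pearson intervals that cover counting error only. In Arntl-/- cells 771 genes (7.19% of those that passed) rose and 989 (9.22%) fell, while 8962 (83.6%) stayed within 1.5-fold. At least 2-fold, 218 genes (2.03%) rose and 319 (2.98%) fell. The counting interval lay clear of 1 for 771 of the 771 genes that rose and 987 of the 989 that fell. The share of higher genes among those called was 43.8% here and 28.5% on the values as deposited, which moved the median of all genes by -0.11.

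Depth differed within the pair, with 15350455 reads on genes at 24 h and 8587560 at 48 h, a ratio of 1.79, against a ratio of 1.16 for the WT pair. The 8 libraries held 8587560 to 27036783 reads. Arntl itself read 11.3 to 20.2 in the 4 Arntl-/- libraries and 32.3 to 38.7 in the 4 WT libraries, which did not overlap. Whether the counted exons lie in the deleted part was not given in the sources used here. All 10 macrophage markers passed, and their summed level was 27051 at 24 h and 36010 at 48 h. Stromal markers summed to 414 and 740 (WT 633 and 1195), led by Col1a1, and T cell markers to 119 and 136, nearly all of it Cd28 and Cd247, with Cd3e, Cd3d and Cd3g listed at 0. The 4 NK cell markers were listed at 0, and platelet markers summed to 35.9 and 94.8, mostly Ppbp. In bulk RNA, fewer cells of a type and less RNA per cell cannot be told apart.

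The change also moved with the level of a gene. With the genes cut into 10 groups of like size by level, the lowest group had a median of -0.13 and the highest a median of 0.30, and only 1 gene of the 1072 in the highest group fell. The WT pair gave -0.06 and 0.22. With 10 groups by length, the shortest had a median of 0.26 and the longest -0.09. After subtraction of a smooth curve of change over level, 773 genes (7.21%) were higher and 759 (7.08%) lower. List medians and calls are therefore also given level-corrected, and how far depth or level entered a list of abundant genes was not tested. The list counts below are to be read beside the shares of all genes, 7.19% higher and 9.22% lower, or 7.21% and 7.08% level-corrected.

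**Figure D1:**
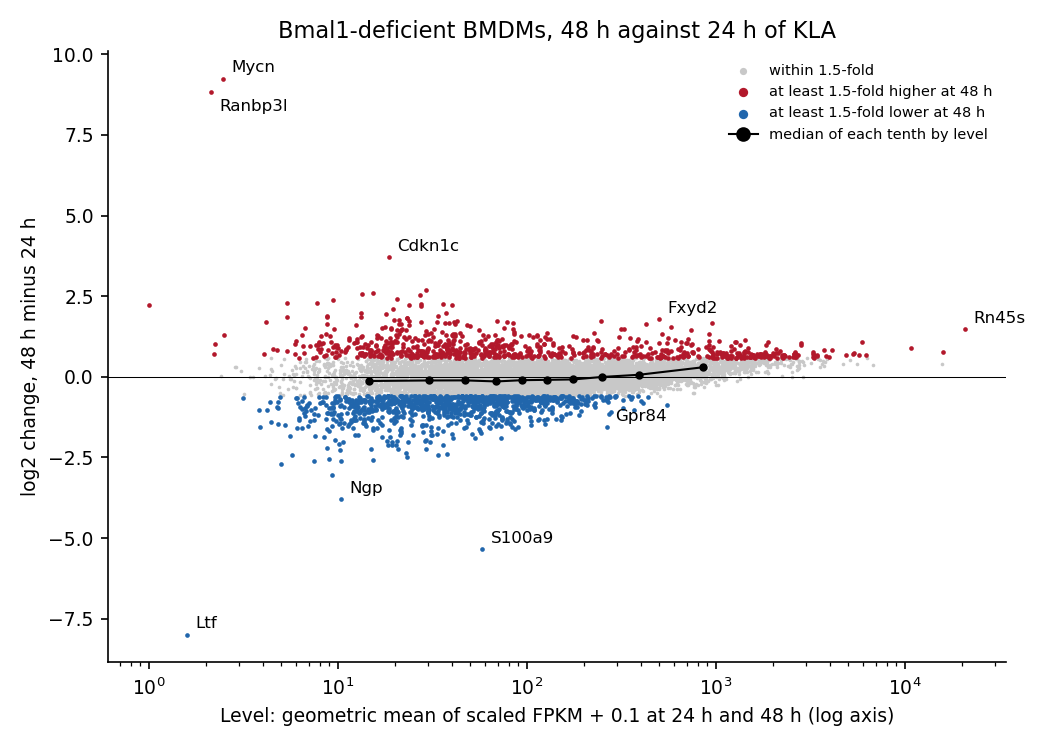
Change from 24 to 48 h of KLA in Arntl-/- BMDMs (vertical, log2) against level (horizontal, geometric mean of scaled FPKM + 0.1, log axis) for the 10722 genes that passed. Red points rose and blue points fell at least 1.5-fold, the black line joins the medians of 10 groups of genes by level, and Mycn, Ranbp3l and Ltf, with 0 reads on one side, are placed by the added 0.1.

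**Figure D2:**
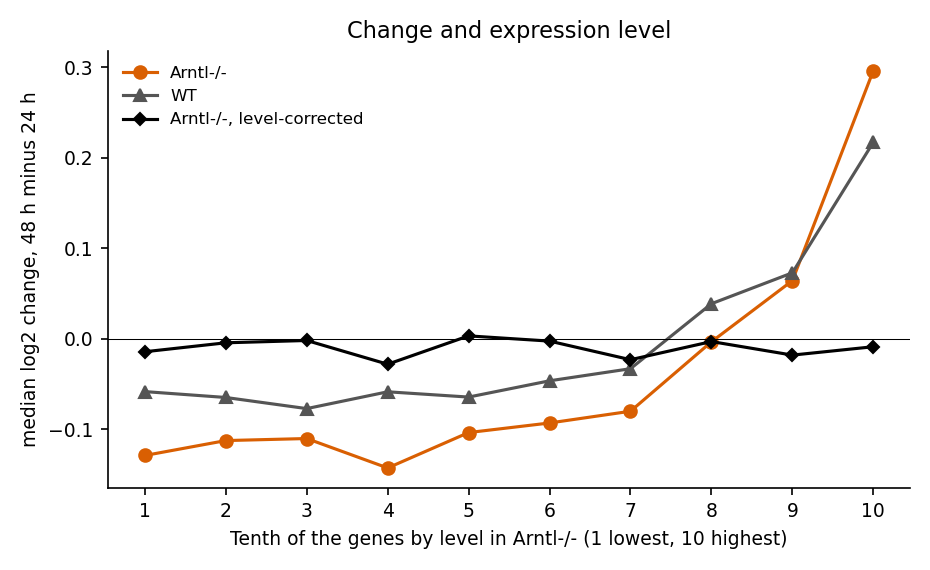
Median log2 change from 24 to 48 h in 10 groups of genes by level in Arntl-/- cells (horizontal, 1 lowest to 10 highest), for Arntl-/- cells, WT cells and Arntl-/- cells after the level correction. The Arntl-/- median was -0.13 in the lowest group and 0.30 in the highest.

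Genes of mitosis fell together. Of 45 mitosis genes, which all passed, 44 fell and 33 of these fell at least 2-fold, with a median of -1.10 (level-corrected -1.07, with 43 lower) beside -0.02 for all genes. Espl1, which encodes separase, the protease that releases sister chromatids, read 96.9, 72.7, 64.3 and 20.1 at 0, 6, 24 and 48 h, so that its level at 48 h was 0.312 of that at 24 h (interval 0.264 to 0.367). The kinesin Kif11, which pushes spindle poles apart, went from 128 to 47.1, and Kif4, a chromosome-bound kinesin, from 58.6 to 16.8. The kinase gene Melk fell most in the list, from 57.5 to 14.5 (-1.98 on the log2 scale). Top2a, the topoisomerase that untangles chromosomes, fell from 406 to 192, and Mki67, the Ki-67 antigen, from 224 to 132. The 1 member that was not called was Cenpa, the centromeric histone, at 190.0 and 145 (-0.39).

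Mitosis genes also stood among the deepest falls of well-read genes. Of the 12 genes with at least 1000 reads that fell most, 6 were members of the mitosis list (Espl1, Kif20a, Kif11, Kif23, Racgap1 and Hmmr), and Iqgap3, Ccnf, Ckap2l, Spag5 and E2f8 fell beside them. Ccnf, which encodes cyclin F, a substrate receptor of an SCF ubiquitin ligase, went from 152 to 49.5, a ratio of 0.326 (0.279 to 0.38). The other was Gpr84, a receptor for medium-chain fatty acids, at 303, 579, 455 and 153 over the 4 times, a log2 change of -1.57 in the last interval against -0.89 in WT cells.

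The promoters of 3 of these genes are shown for the cell cycle homology region (CHR), letters TTTGAA, through which the DREAM complex is known to act on mitotic genes. They are the 250 bases before the start site in the RefSeq promoter table (build GRCm38.p6), written on the strand of the gene with each match on either strand in capitals.
Espl1, chr15:102296043-102296292, plus strand: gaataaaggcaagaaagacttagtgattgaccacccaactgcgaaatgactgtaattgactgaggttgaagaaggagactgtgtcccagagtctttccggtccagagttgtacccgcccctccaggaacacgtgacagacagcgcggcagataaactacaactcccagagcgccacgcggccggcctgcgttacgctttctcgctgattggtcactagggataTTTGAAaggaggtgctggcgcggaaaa
Ccnf, chr17:24251410-24251659, minus strand: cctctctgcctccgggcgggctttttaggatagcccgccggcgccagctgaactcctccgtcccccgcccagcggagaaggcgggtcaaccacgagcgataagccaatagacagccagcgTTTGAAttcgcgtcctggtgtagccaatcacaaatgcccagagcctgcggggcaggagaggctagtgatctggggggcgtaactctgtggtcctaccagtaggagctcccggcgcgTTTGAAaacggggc
Kif11, chr19:37376132-37376381, plus strand: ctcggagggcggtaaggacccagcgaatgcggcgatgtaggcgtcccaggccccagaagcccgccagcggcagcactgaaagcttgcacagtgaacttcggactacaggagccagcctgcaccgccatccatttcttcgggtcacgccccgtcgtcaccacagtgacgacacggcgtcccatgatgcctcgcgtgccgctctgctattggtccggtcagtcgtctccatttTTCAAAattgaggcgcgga

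The match began 27 bases before the start of Espl1, 130 and 14 bases before that of Ccnf, and 19 bases before that of Kif11, where it reads on the opposite strand. Over the whole table's window of 250 bases before to 50 after the start, on both strands, TTTGAA was found in 18.1% of 27025 promoters. It was found in 11.9% of the 8162 promoters matched to genes that passed, in 9.77% of 563 promoters of genes that rose, in 20.3% of 759 promoters of genes that fell and in 29 of 38 (76.3%) promoters of the mitosis list. Of lists described below, TTTGAA stood in 11 of 34 promoters of type I interferon response genes, of which none fell, and in 5 of 37 of DNA replication genes. CCAAT, a box bound by NF-Y, was found in 39.0% of promoters of genes that passed and in 29 of 38 of the mitosis list. A match is a description of these letters and not a measured site.

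DNA replication genes fell less evenly, with 31 of 46 lower, none higher and a median of -0.84 (level-corrected -0.76, with 28 lower). Mcm10, which links the helicase to polymerase, had the lowest value and went from 149.6 at 0 h through 63.4 at 24 h to 13.2 at 48 h (-2.25), and Pole, the catalytic subunit of DNA polymerase epsilon, from 37.2 to 12.4. Of the helicase ring itself, Mcm2, Mcm4, Mcm5, Mcm6 and Mcm7 fell, by 0.73 (Mcm6) to 1.09 (Mcm2) on the log2 scale, and Mcm3 was at -0.57. The nucleotide genes Tyms (thymidylate synthase, -1.87) and Rrm2 (ribonucleotide reductase, 402 to 182, -1.14) fell with them. Pcna, the sliding clamp, read 1065 and 1112, and the maintenance methyltransferase gene Dnmt1 337 and 314.

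Replication-dependent histone transcripts, which normally end in a stem-loop and not in a poly(A) tail, went the other way in the counts. Of 32 genes only 9 passed the read filter, and 8 of those 9 rose, with a median of 1.01 (level-corrected 0.87, with 7 higher) against 0.04 in the WT pair. Hist2h2aa1 went from 484 to 1008, Hist1h1c from 283 to 504 and Hist1h1e from 18.5 to 86.9. Histone genes of a cluster are near-identical, so reads may be shared among them. Other RNAs with no or few poly(A) tails, picked after their values were seen, moved the same way in Arntl-/- cells. Their part in the histone values was not tested. Precursor ribosomal RNA (Rn45s) took 1.19% of reads at 24 h and 3.02% at 48 h, rising 2.77-fold (1.70-fold in WT cells). Its log2 change of 1.47 became 0.42 after the level correction, short of 1.5-fold, and that of the WT pair -0.02. Rpph1, the RNA of RNase P, rose 3.17-fold, Rmrp 2.76-fold and Malat1 2.12-fold. In WT cells, where the histone median was 0.04, their ratios were 2.17, 1.28 and 1.39. The corrected log2 changes of Rpph1, Rmrp and Malat1 were 1.36, 1.23 and 0.60.

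**Figure D3:**
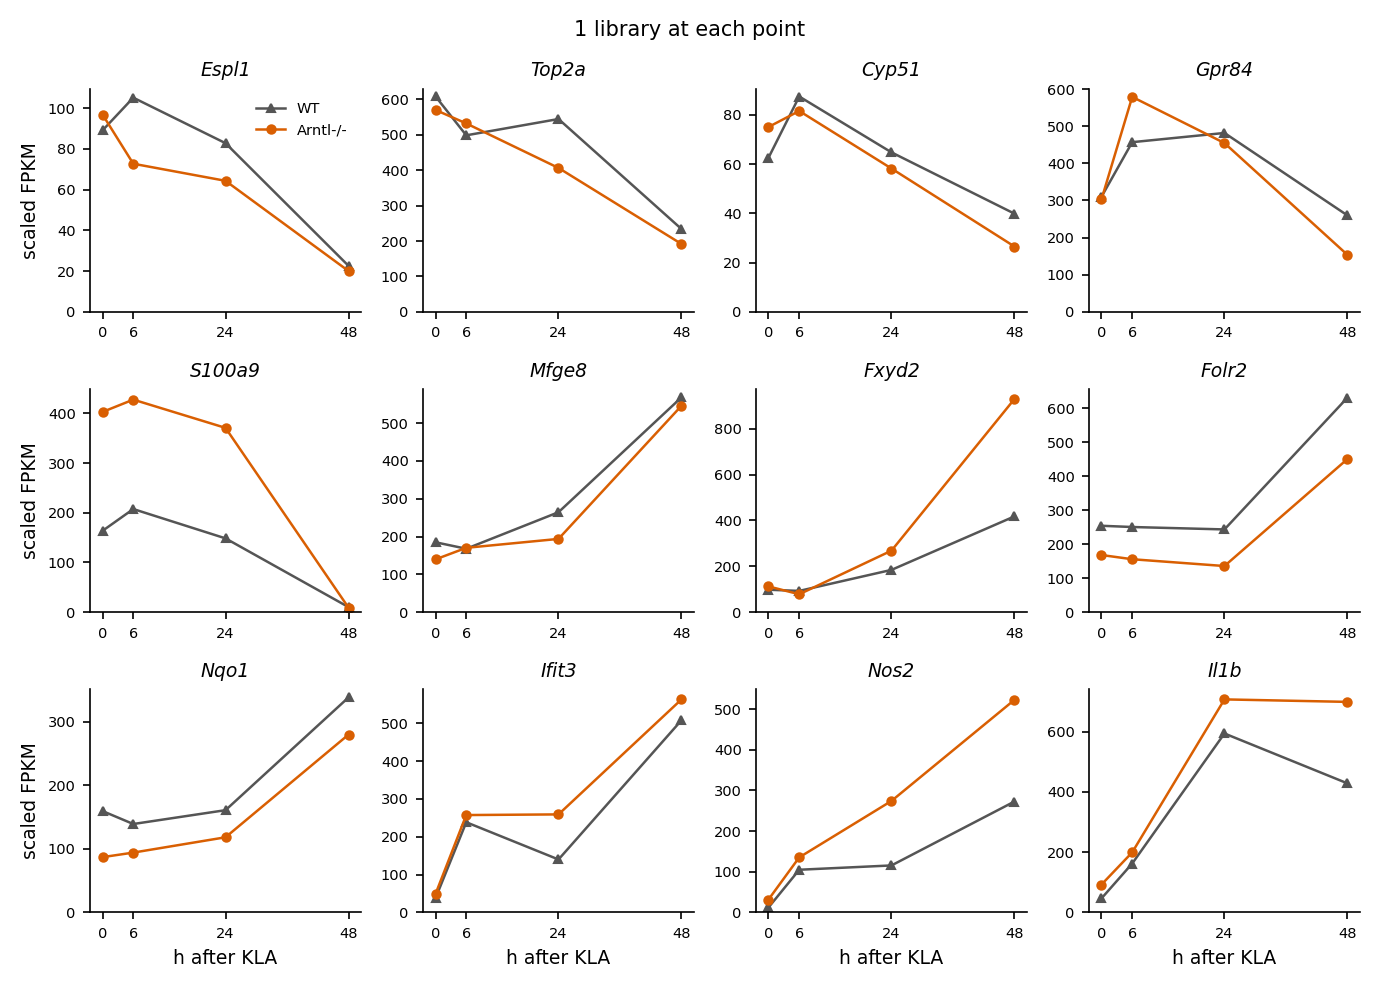
Scaled FPKM at 0, 6, 24 and 48 h of KLA in Arntl-/- (circles) and WT (triangles) BMDMs for 12 genes, 1 library at each point and linear axes from 0. Espl1, Top2a, Cyp51, Gpr84 and S100a9 were lower at 48 h than at 24 h in both genotypes, Fxyd2, Mfge8, Folr2, Nqo1, Ifit3 and Nos2 were higher, and Il1b read 707 and 699 in Arntl-/- cells.

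Of the 23 sterol synthesis genes that passed, 7 fell and none rose, with a median of -0.32. All 23 had values below 0, but after the level correction Nsdhl and Pmvk stood at 0.01 and 0.02, 5 genes were lower and the median was -0.28. Hmgcs1 was listed at 0 in both libraries. Cyp51, the lanosterol demethylase, read 75.1, 81.6, 58.2 and 26.5 over the 4 times, and Idi1, which makes dimethylallyl diphosphate, went from 99.1 to 47.9. Others that fell included Stard4 (-1.02), a sterol carrier, Hsd17b7 (-0.79), Lss (-0.64), the lanosterol synthase, and Acat2 (-0.62). The annotated span of Lss overlaps that of 4930483K19Rik. Lss and Acat2 were not called after the correction. CCAAT lay in 14 of 16 promoters of the sterol list, beside 39.0% of promoters of all genes that passed. Of lists described below, it lay in 11 of 13 (clock), 22 of 30 (unfolded protein and ATF4) and 3 of 17 (cytokines and chemokines).

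Of the fatty acid genes, 4 fell. Fads2, the delta-6 desaturase, fell from 74.3 to 17.2, a log2 change of -2.10 (interval of the ratio 0.156 to 0.333) against -0.24 in WT cells. Acsl3 (-0.92), Scd1 (-0.86) and Fasn (-0.63), the fatty acid synthase, also fell, while none of the 15 members that passed rose and the median was -0.18 (level-corrected -0.24, with 3 lower, Fasn no longer among them). Acsl1, an acyl-CoA synthetase of activated macrophages, read 1125 and 1363. The genes for the SREBP factors, which are known to drive both lists, Srebf1 (-0.30) and Srebf2 (-0.23), were within 1.5-fold.

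Genes of cholesterol efflux differed among themselves. Of 13 LXR-related genes that passed, 4 rose and 1 fell, with a median of 0.43. After the level correction the median was 0.30, with 2 higher (Mylip and Cd5l) and none lower. Apoe, the lipoprotein that carries sterol out of macrophages, went from 2034 to 3289, Pltp from 1031 to 1559.7, Smpdl3a from 826 to 1351 and Mylip, a ubiquitin ligase, from 235 to 384. The corrected changes were 0.14, 0.22, 0.38 and 0.68 in that order. The member that fell was the LXR-alpha gene itself, Nr1h3, from 188 to 120.5 (-0.64, corrected -0.56), with WT values of 222 and 259. The transporter genes Abca1 (359.8 and 351) and Abcg1 (216 and 266) stayed within 1.5-fold.

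Type I interferon response genes were higher at 48 h. Of 46 members, which all passed, 15 rose, 5 of them at least 2-fold, and none fell. The median was 0.47 (level-corrected 0.26, with 11 higher, Cmpk2 and Mx2 newly among them, and none lower), beside 28 higher and a median of 0.66 in the WT pair. Ifit3, one of the tetratricopeptide proteins that act on viral RNA, read 48.5, 257, 259 and 563 at 0, 6, 24 and 48 h, a plateau from 6 to 24 h and a ratio of 2.17 (2.02 to 2.35) after it. Ifit2 went from 231 to 533, Slfn4 from 189 to 525 and Ifi44 from 84.0 to 191. Isg20, an exonuclease, rose most, from 38.2 to 127, and Isg15, the ubiquitin-like modifier, went from 400.3 to 652. The signalling genes Stat2 (523 and 583) and Irf9 (221 and 204) stayed within 1.5-fold, and Irf7, the amplifying factor, rose from 789.6 to 1189. Irf7 and Isg15 were not called after the correction (0.28 and 0.57). Ifnb1, the interferon-beta gene, was listed at 0 at 24 and 48 h.

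The guanylate-binding proteins (GBP) and immunity-related GTPases (IRG), which coat vacuoles that hold microbes and respond mainly to interferon-gamma, stayed near 0 as a list. Of 15 that passed, 1 rose and 1 fell, with a median of -0.14 (level-corrected -0.11, with none called) and 0.27 in WT cells. Among all genes that passed 7.19% rose and 9.22% fell. Gbp5 went from 46.1 to 28.7 (-0.68), while its WT values were 15.5 and 22.4. Gvin1, a very large GTPase, rose from 566 to 883, and its annotated span overlaps that of Gm4070. Whether their exons overlap was not examined.

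The interferon-stimulated response element (ISRE), letters GAAANNGAAA, stands in promoters of both lists, and 3 are shown for it in the same form as above. Ifit3 and Isg15 rose and Gbp5 fell.
Ifit3, chr19:34583279-34583528, plus strand: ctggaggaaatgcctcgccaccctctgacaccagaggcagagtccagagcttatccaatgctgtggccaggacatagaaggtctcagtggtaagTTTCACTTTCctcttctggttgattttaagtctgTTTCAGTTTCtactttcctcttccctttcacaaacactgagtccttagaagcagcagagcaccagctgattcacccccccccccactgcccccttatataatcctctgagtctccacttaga
Isg15, chr4:156200819-156201068, minus strand: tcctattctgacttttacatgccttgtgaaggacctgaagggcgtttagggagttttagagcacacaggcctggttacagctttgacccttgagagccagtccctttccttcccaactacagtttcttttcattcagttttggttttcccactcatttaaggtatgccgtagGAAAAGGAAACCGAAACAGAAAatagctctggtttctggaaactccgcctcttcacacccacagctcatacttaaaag
Gbp5, chr3:142496684-142496933, plus strand: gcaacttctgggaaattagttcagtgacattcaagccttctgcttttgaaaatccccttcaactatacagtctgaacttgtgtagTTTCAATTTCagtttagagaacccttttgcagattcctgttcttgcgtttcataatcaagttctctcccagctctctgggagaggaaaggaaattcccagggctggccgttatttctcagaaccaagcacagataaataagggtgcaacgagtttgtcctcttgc

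Matches began 156 and 122 bases before the start of Ifit3 and 165 bases before that of Gbp5, on the opposite strand in both, and 78, 72 and 66 bases before that of Isg15, where the 3 overlap. The letters were found in 3.49% of all promoters, in 17 of 34 of the interferon list, in 9 of 9 of the GBP and IRG list, in 4.80% of promoters of genes that rose and in 4.22% of those that fell. TTCNNNGAA, the letters of the GAS element, stood in 6 of 9 promoters of the GBP and IRG list and in 6.89% of those of all genes that passed.

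Among 22 MHC class I presentation genes 3 rose and none fell, with a median of 0.43 and, after the level correction, a median of 0.03 with none higher and 1 lower (H2-M3). H2-T23, which encodes Qa-1, rose from 1129 to 1939.8, with a corrected change of 0.36 that is short of 1.5-fold. H2-D1 and H2-L, at 0.67 and 0.68, overlap in the annotation and turned to -0.03 and -0.07 after the level correction. For MHC class II, 7 of 11 genes passed and 3 rose (H2-Ab1, H2-DMb2 and Ctss), with a median of 0.52 (level-corrected 0.49, with 3 higher, H2-DMb1 in place of Ctss) against -0.12 in WT cells. H2-Ab1 went from 134 to 229 (WT 109 to 164), Cd74, the invariant chain, from 107 to 142 (WT 117 to 66.1), and H2-Eb1 read 26.0 and 26.7. The 4 that did not pass went different ways: Ciita, the class II transactivator, had 26 and 0 reads, H2-Aa 50 and 18, H2-Ob 27 and 15, and H2-Oa 24 and 36, and the 48 h library is the shallower. Per depth and length H2-Aa read 18.8 and 13.2, and H2-Oa was 2.92-fold higher at 48 h. B cell and dendritic cell markers, which could carry such genes, summed to 43.5 and 60.2 and to 9.52 and 4.73 at 24 and 48 h, and their part was not tested.

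**Figure D4:**
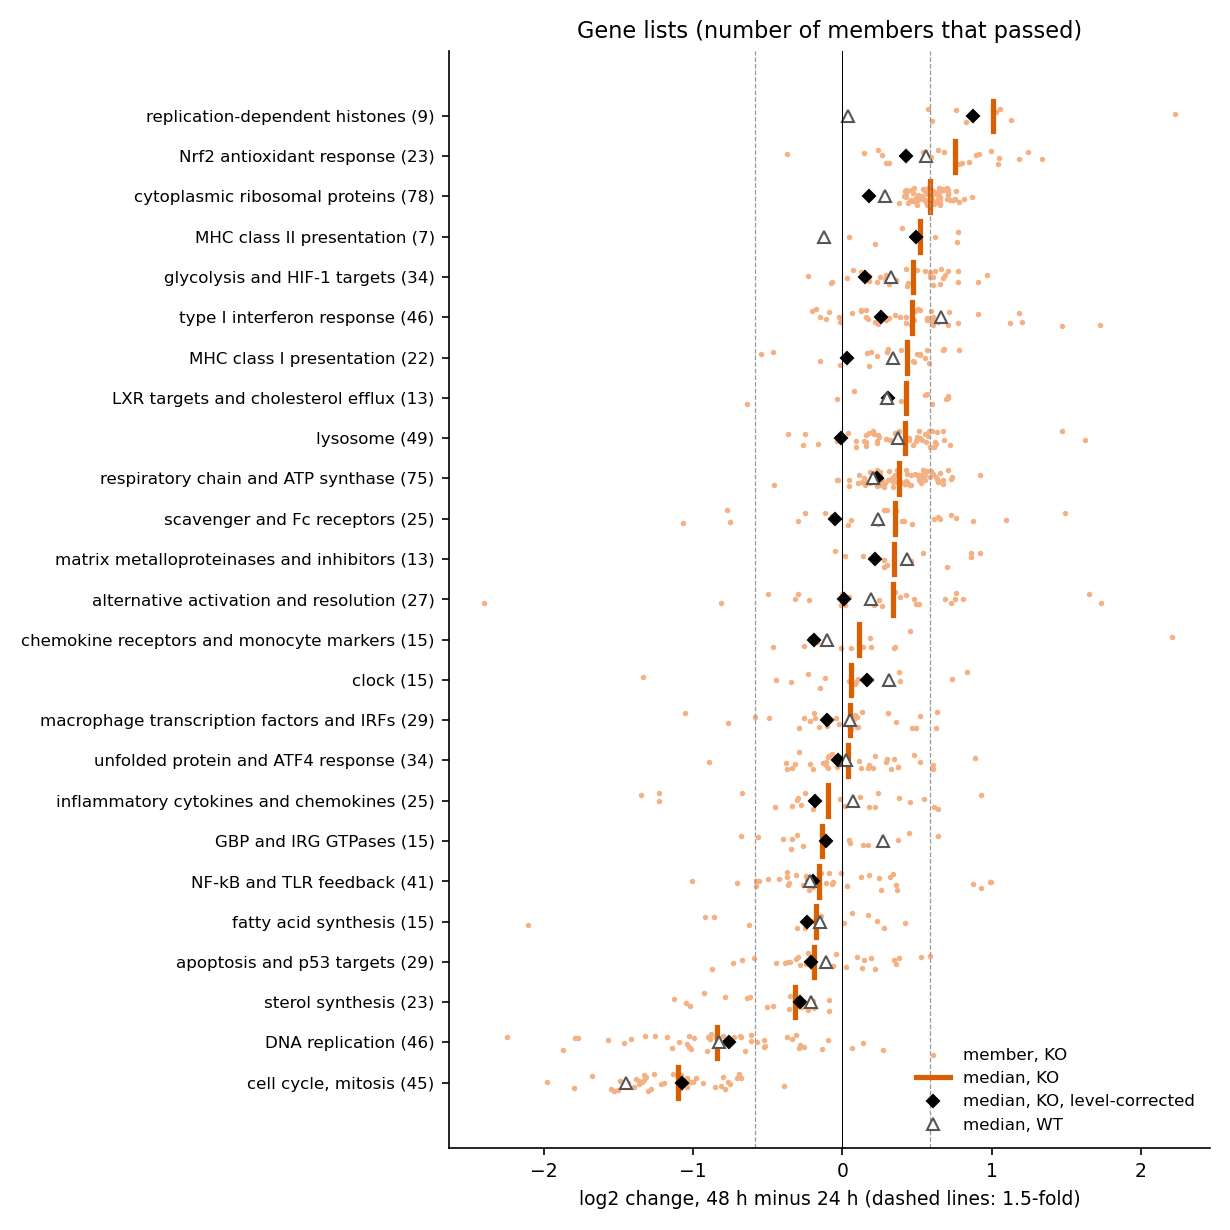
Log2 change from 24 to 48 h for each member (dots) of 25 gene lists in Arntl-/- cells, with the list median (bar), the level-corrected median (diamond) and the WT median (triangle), and in brackets the members that passed. The mitosis list lies at -1.10 and the histone list at 1.01, and the level-corrected diamonds of the lysosome, MHC class I and ribosomal lists lie nearer 0 than their bars.

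Cytokine and chemokine genes showed no common direction. Of 38 written, 25 passed, of which 3 rose and 4 fell, with a median of -0.10 (level-corrected -0.18, with 2 higher and 3 lower, Ccl6 and Cxcl1 no longer called). The shares over all genes that passed were 7.19% higher and 9.22% lower. Cxcl10, a chemokine for T cells, read 89.0, 465, 241 and 94.6 over the 4 times (-1.35, WT -0.49). Osm, an IL-6 family cytokine, fell from 82.7 to 35.2, Csf3, which encodes G-CSF, from 33.9 to 14.4 and Cxcl1, a neutrophil chemokine, from 72.4 to 45.4. Cxcl3, another neutrophil chemokine, rose from 644 to 1224, with Ccl6 (0.64) and Lif (0.62). Il1b was level in this interval, at 92.1, 199, 707 and 699 over the 4 times, while the WT library went from 594 to 428. Tnf read 522 and 425 and Il1rn, the IL-1 receptor antagonist, 647 and 946. Il6 and Il10 had too few reads to pass, at 23.3 and 6.49 for Il6 and 18.4 and 3.60 for Il10.

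The NF-kB and TLR feedback list, read whole, was lower by little. All 41 genes passed, 4 rose and 2 fell, and the median was -0.16. After the level correction the median was -0.20, with 3 higher and 4 lower, Nfkb1 and Socs3 among the latter. Dusp5, a phosphatase of ERK, fell from 55.9 to 27.8 and Rel, the c-Rel subunit, from 81.0 to 49.6. Nfkb1 read 403 and 269, a log2 change of -0.58 just short of 1.5-fold, and Rela, the p65 subunit, 375 and 351. The inhibitor genes Nfkbia (0.25) and Tnfaip3 (-0.20) lay within 1.5-fold.

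The 4 that rose, beside 7.19% of all genes, were Nos2, Lcn2, Marco and Slc7a2. Nos2, the inducible nitric oxide synthase, read 31.5, 135, 274 and 523 at 0, 6, 24 and 48 h, a ratio of 1.91 in the last interval (1.81 to 2.01), and 115 and 273 at 24 and 48 h in WT cells. Lcn2, which binds bacterial siderophores, went from 649 to 1294, Marco, a scavenger receptor, from 1532 to 2811 (corrected 0.38, short of 1.5-fold), and Slc7a2, the transporter that supplies arginine to Nos2, from 12.5 to 24.9.

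Genes were also grouped by their early response. The 365 genes that were at least 1.5-fold higher at 6 h than at 0 h in Arntl-/- cells, a contrast with no library in common with this one, had a median change of 0.18 from 24 to 48 h (level-corrected 0.22), and 80 of them (21.9%) rose and 35 (9.59%) fell. The 386 genes lower at 6 h had a median of -0.17, with 39 (10.1%) higher and 96 (24.9%) lower. After the level correction their median was -0.06. The 9971 genes within 1.5-fold at 6 h had 6.54% higher and 8.60% lower. The lowest of the 10 groups by level, cut without regard to the 6 h response, had 166 of 1073 genes higher and 294 lower. How far level entered the counts of the early groups was not tested.

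Of 23 Nrf2 target genes, which all passed, 15 rose, 5 of them at least 2-fold, and none fell, with a median of 0.76, beside 11 higher and a median of 0.56 in WT cells. After the level correction the median was 0.42 and 8 were higher, Gclc newly among them. Nqo1, the quinone reductase, read 86.9, 94.1, 118 and 279.9 over the 4 times, a ratio of 2.37 in the last interval (2.09 to 2.69). Among peroxide-removing enzymes Prdx6 went from 325 to 821, Prdx1 from 1991 to 3978 and catalase (Cat) from 474 to 1077. Gclm, a subunit of the enzyme that starts glutathione synthesis, rose from 480.4 to 991, while Gclc, its partner, read 112 and 163.

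Of the haem and iron genes in the list, Hmox1, which opens the haem ring, went from 1949 to 4024, Blvrb from 811 to 1369 and Slc48a1, a haem transporter, from 699 to 1317. Their corrected changes were 0.47, 0.42 and 0.61, and that of Prdx1 was 0.42. The ferritin genes Fth1 (12089 to 20801) and Ftl1 (7898 to 14712) were among the most abundant transcripts, and their level-corrected changes were -0.20 and 0.00. Nfe2l2, the Nrf2 gene, read 959 and 1062, Keap1, its inhibitor, 197 and 232, and Osgin1 was the only member with a value below 0, at -0.37. Outside the list, Mt2, a metallothionein, rose from 339.9 to 989.

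Glycolysis and HIF-1 target genes showed 15 of 34 higher and none lower, with a median of 0.47 (level-corrected 0.15, with 4 higher) and 4 higher in WT cells. Aldoa went from 2486 to 4247, Pgk1 from 1815 to 2918 and Ldha, which makes lactate, from 2141 to 3262. These are abundant transcripts, with level-corrected changes of 0.16, 0.16 and 0.05. The less abundant targets P4ha2, a collagen prolyl hydroxylase, Egln3, a HIF prolyl hydroxylase, and Ero1l, an oxidase of the secretory pathway, rose from 69.8 to 136, 282 to 482 and 525 to 856, with corrected changes of 1.07, 0.70 and 0.50. Hif1a itself read 516 and 563.

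Housekeeping lists of abundant, mostly short transcripts lay above 0. All 78 cytoplasmic ribosomal protein genes had values above 0 and 39 rose, with the highest value at 0.87 (Rpl36) and a median of 0.58. After the level correction the median was 0.18 and 1 gene of the 78, Rps15a, was higher. None of the 78 was called in WT cells, where the median was 0.28. Of 75 respiratory chain and ATP synthase genes 14 rose and none fell, with a median of 0.38 (level-corrected 0.23, with 3 higher), and Ndufc1, an accessory subunit of complex I, rose most, from 263 to 498. Of 49 lysosomal genes 10 rose and none fell, and the median of 0.42 became -0.01, with 2 higher, after the correction. Psap, the saposin precursor, and Ctss, cathepsin S, rose by 0.72 and 0.62 and stood at -0.01 and -0.04 after the correction.

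Within the lysosomal list 2 scarce transcripts, both known from osteoclasts, rose most. Ctsk, the collagen-cutting cathepsin K, went from 50.3 to 139.6 (1.47, WT 1.02) and Atp6v0d2, a subunit of the proton pump, from 11.9 to 36.9 (1.63, WT 1.61). Their corrected changes, 1.58 and 1.74, were no smaller.

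Alternative activation and resolution genes diverged. Of 39 written 27 passed, 7 rose and 2 fell, with a median of 0.34 (level-corrected 0.01, with 4 higher and 2 lower). Folr2, a folate receptor of resident macrophages, read 168, 156, 136 and 451, low and then high in the last library. Axl, a receptor for apoptotic cells, Igf1, a growth factor, and Cd36, a lipid scavenger receptor, rose by 0.81, 0.75 and 0.76, with corrected changes of 0.92, 0.81 and 0.55.

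The 2 that fell are also classed with alternative activation. Chil3, the chitinase-like protein Ym1, went from 86.9 to 16.3 (-2.40) and Mrc1, the mannose receptor, from 546 to 309.9 (-0.82, with WT at -0.81). Retnla, Mgl2 and Cd209a were listed at 0 in both libraries. The complement genes C1qa, C1qb and C1qc stayed within 1.5-fold, at 0.25 to 0.39, as did Trem2 at 0.35.

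Of 25 scavenger and Fc receptor genes 8 rose and 3 fell, with a median of 0.35. After the level correction the median was -0.05, with 3 higher (Colec12, Treml4 and Clec4n) and 3 lower. Clec4n, the fungal receptor Dectin-2, went from 624 to 1336 and Colec12, a scavenger C-type lectin, from 19.1 to 53.9. Trem1, an amplifier of inflammation, fell from 99.4 to 47.2, with Olr1 (-0.77) and Clec5a (-0.75). Treml4 and Olr1 rest on 105 and 148 reads in the pair.

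Chemokine receptors and monocyte markers hardly moved, with 1 of 15 higher, none lower and a median of 0.11 (level-corrected -0.19, with 1 higher). The exception was Itgax, the CD11c integrin, from 12.7 to 59.1 (2.21, WT 1.88). Cx3cr1, the fractalkine receptor, read 102, 172, 233 and 266 in Arntl-/- cells and 51.5, 60.8, 111 and 65.6 in WT cells. Its lowest Arntl-/- value after KLA thus lay above each WT value. Csf1r, the M-CSF receptor, read 2152 and 2733. Of 13 matrix metalloproteinase and inhibitor genes that passed 4 rose and none fell, namely Mmp12 (683 to 1242), an elastase, Mmp8 (1195 to 1941), a collagenase, Mmp3 (18.1 to 34.4) and Timp3 (8.11 to 14.8), with Mmp9, a gelatinase, at 1824 and 2657. The list median was 0.35 (level-corrected 0.22), and 2 genes, Mmp3 and Timp3, were higher after the correction, with Mmp12 at 0.57 and Mmp8 at 0.28. Mmp3 and Timp3 are also made by stromal cells, whose summed markers were also higher at 48 h, and that part was not tested.

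Core clock genes were mostly steady. Of 19 genes 15 passed, 2 rose and 1 fell, with a median of 0.06 (level-corrected 0.17, with the same 2 higher and 1 lower) against 0.31 in WT cells. Over all genes that passed, 7.19% rose and 9.22% fell. Of the Bmal1 targets, Nr1d2 read 6.15, 3.23, 2.76 and 3.70 in Arntl-/- cells, too few reads to pass, and 70.6, 60.2, 95.4 and 90.2 in WT cells. Nr1d1 went from 10.00 to 16.7 on 69 and 59 reads (ratio 1.67, interval 1.16 to 2.40), and Dbp read 50.1 and 52.2. Of the repressors, Cry1 read 208 and 187 in Arntl-/- cells and 53.5 and 35.7 in WT cells, and Per2 33.7 and 34.7 against 10.4 and 15.2. Cry2 had log2 changes of -0.35 in Arntl-/- and 0.60 in WT cells, and Per1 of 0.38 and 0.58. Bhlhe41, a repressor known as Dec2, rose from 153 to 273 and in WT cells from 129 to 237. Ciart, a repressor of Bmal1 activity, fell from 25.6 to 10.1 on 89 and 18 reads, and its annotated span overlaps that of C920021L13Rik. CACGTG, the E-box, stood in 5 of 13 promoters of the clock list (38.5%), in 7.99% of those of genes that rose, in 9.35% of those of genes that fell and in 10.8% of those of all genes that passed.

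Transcription factor genes of macrophages centred near 0, with 2 of 29 higher, 3 lower and a median of 0.05 that turned to -0.10 after the level correction, with 2 higher (Ahr at 0.64 and Atf5 at 0.59) and 3 lower. Egr1 fell from 48.5 to 23.3 and Fos from 472 to 314, both immediate-early genes, with the orphan receptor gene Nr4a1 (-0.77), and the 2 that rose were Jund (408 to 631, corrected 0.49, short of 1.5-fold) and Atf5 (263 to 408). Spi1, which encodes PU.1, read 1279 and 1582, and Cebpb 1164 and 1608, where the WT library went from 1141 to 992. Of 29 apoptosis and p53 genes 4 fell and 1 rose, with a median of -0.19 (level-corrected -0.21, with 1 higher and 2 lower). Pmaip1, the BH3 protein Noxa, Bcl2a1d and Bid were among those that fell, at -0.87, -0.73 and -0.59, and Bak1 rose (0.59). Of 34 unfolded protein and ATF4 genes 3 rose and 1 fell, with a median of 0.04 that turned to -0.03 after the correction, with 3 higher and 1 lower. Beside the lists of this paragraph, 7.19% of all genes that passed rose and 9.22% fell. Vldlr (0.89), Phgdh (0.60) and Slc7a5 (0.60) rose, Slc7a1 (-0.89) fell, and Hspa5, the chaperone BiP, read 1232 and 1597.

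Of the 12 genes with at least 1000 reads that rose most, several stood outside the lists. Fxyd2 (mm9, chr9:45214160-45218361), a regulatory subunit of the sodium pump, read 112, 77.9, 268 and 929.7 over the 4 times, a ratio of 3.47 (3.05 to 3.95). Mfge8, a bridge between apoptotic cells and phagocytes, went from 194 to 546, Procr, the protein C receptor, from 578 to 1444 and Col18a1, the collagen that holds endostatin, from 140.2 to 362. Their WT log2 changes were 1.18, 1.10, 1.13 and 1.35, each in the same direction. Summed stromal markers were higher at 48 h in both pairs of libraries, and their part in Col18a1 was not tested.

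Among genes with 100 to under 1000 reads the largest changes joined an empty library to a filled one. Mycn (mm9, chr12:12942899-12948642), the N-Myc gene, had 0 reads at 0, 6 and 24 h and 202 at 48 h, at least 131-fold above a floor of 3 reads at 24 h, and its 4 WT libraries held 0 to 6 reads. Ranbp3l (mm9, chr15:8917949-8997082), which encodes a nuclear export factor for Smads, had 6 reads at 0 h, 0 at 6 and 24 h and 229 at 48 h, at least 149-fold above that floor, and 0 in every WT library. Cdkn1c, the cell cycle inhibitor p57, went from 24 to 163 reads (5.05 to 66.9, ratio 13.2, interval 8.59 to 21.3). Its WT values were 28.3 and 76.6. Each of these rests on the single 48 h library.

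The 3 largest falls in that tier were neutrophil genes. Ltf, lactoferrin, went from 173 reads to 0, at least 29.6-fold below by the floor of 3 reads at 48 h, and in WT cells from 80 to 0. Ngp went from 111 reads to 4 and S100a9, a subunit of calprotectin, from 482 reads to 6 (371 to 9.00). S100a9 had read 403 and 428 at 0 and 6 h and fell in WT cells from 148 to 10.1. S100a8, the other subunit, rose from 411 to 905 in Arntl-/- cells and from 429 to 910.3 in WT cells, so the summed neutrophil list read 860 and 943. Of the other defining neutrophil markers in the table, Mpo and Retnlg had 0 reads in both libraries, Elane had 2 reads and 0, and Camp had 20 in each. Per depth Camp was higher at 48 h, at 13.5 and 26.3 (ratio 1.95, interval 0.996 to 3.82), but had too few reads to pass.

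The WT pair, which shares no library with the Arntl-/- pair, showed 859 genes higher (8.01%) and 1075 lower (10.0%). Of the genes that rose, 323 rose in both genotypes, 41.9% of the Arntl-/- set and 37.6% of the WT set. Of those that fell, 446 fell in both, 45.1% and 41.5% of the sets. In opposite directions, 35 genes rose in Arntl-/- and fell in WT cells and 38 did the reverse. Across the 10722 genes, which are not independent replicates, the changes had a Pearson r of 0.493 (Spearman rho 0.498), and r was 0.719 over the 5715 genes with at least 1000 reads. With 1 library per condition no difference between the genotypes was tested.

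**Figure D5:**
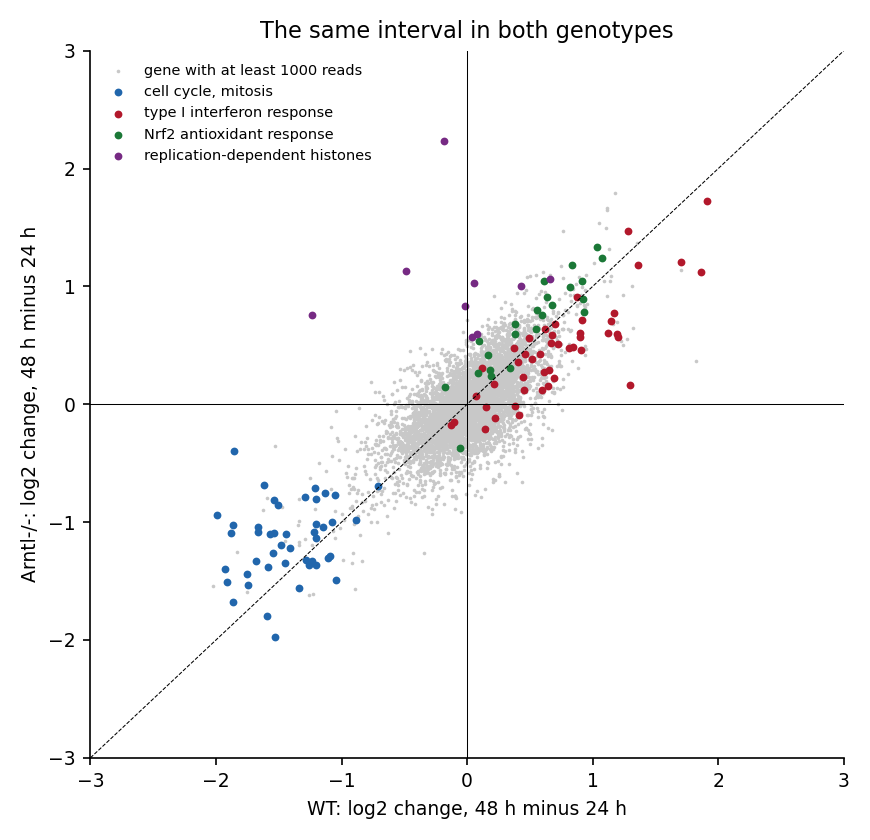
Log2 change from 24 to 48 h in Arntl-/- cells (vertical) against WT cells (horizontal) for genes with at least 1000 reads (grey) and for members of 4 lists that passed (coloured), with the line of equal change dashed. The mitosis genes lie low in both, the interferon and Nrf2 genes lie mostly high in both, and the histone genes lie high in Arntl-/- cells with a median of 0.04 in WT cells.

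Among genes with at least 1000 reads in each pair, the gaps between the 2 changes were widest for 16 genes, 8 in each direction. Thbs1, thrombospondin 1, read 1368 and 1313 in Arntl-/- cells and 1315 and 638 in WT cells. Sesn1, a stress-induced regulator of mTORC1, read 211 and 166 against 273 and 94.8. In the other direction, where the Arntl-/- change was the lower, Ccnd2, a G1 cyclin, read 94.4 and 81.2 against 80.7 and 129, Pxk 262 and 192 against 196 and 266, and Ttc13 fell from 134 to 84.6 (corrected -0.56, short of 1.5-fold) against 107 and 145. St18, a zinc finger factor, fell from 69.0 to 39.9 while the WT library read 61.8 and 66.6. The largest difference was 1.18 (Sesn1) and the lowest -1.10 (Ttc13) on the log2 scale.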

How the data were processed

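PolyA RNA-seq libraries were compared by their labels, with 1 library per genotype and time. The authors used STAR (build mm9) for alignment and HOMER for exon tags of RefSeq genes, taking either strand, at most 3 tags per position and 1 transcript per gene, and deposited FPKM scaled to 10000000 reads. Genes whose exons overlap cannot be told apart by such counting, and the overlaps named here rest on gene spans alone. The deposited table also gives exon length (in bases) as another column. FPKM times length fell on whole multiples of 1 read (100% of low values within 0.1 read in each library), which gave the reads. Scaling used median-of-ratios size factors from the 8 libraries, and log2 changes used a pseudocount of 0.1. The level correction subtracted a lowess curve (fraction 0.3, statsmodels 0.14.6). Computations used Python 3.11.15, pandas 2.3.3 and scipy 1.17.1, and were tested on simulated data. Of the value columns 4 were not used, and 1 line of the table was left out.

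Named genes were the 12 highest and 12 lowest changes among genes with at least 1000 reads, the 6 of each at 100 to under 1000 reads, the 3 of each in every list and all members of lists of up to 20, genes the study names, and the 8 widest gaps to WT each way. Further list members were named as examples after their values were seen. The comparison and the lists were chosen with earlier results of these data known. Alternatives covered scaling, pseudocount, read filter, level and length. The ChIP-seq samples were not analysed here. Some items are not reported here.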

Additional observations from a re-analysis of the deposited data

Results flagged for a closer look

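Of the genes named, 6 changed at least 1.5-fold one way in Arntl-/- cells and at least 1.5-fold the other way in WT cells. The difference was not tested, and the value given is the Arntl-/- log2 change minus the WT one. Sbsn, a secreted protein of epithelia, went from 31 to 96 reads in Arntl-/- and from 73 to 15 in WT cells (4.51). Hist1h2ad, a histone, went from 61 to 53 reads, which is higher per depth, and from 71 to 24 (1.99). Neu3, a sialidase of gangliosides, went from 105 to 8 and from 25 to 42 reads (-3.75). The clock gene Ciart went from 89 to 18 and from 36 to 50 reads (-2.13), and Nr4a1, the orphan receptor Nur77, from 150 to 45 and from 71 to 86 (-1.37). Mycn, the N-Myc gene, went from 0 to 202 and from 6 to 0 reads, and its value (13.1) depends on the 0.1 added to the libraries at 0 and is no estimate of size. The counts behind the other 5 values lay between 8 and 150 reads, with 1 library at each time in each genotype.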

How the results depend on the processing

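The counts of genes called moved with the read filter. With at least 30 reads in the pair (12072 genes), 1221 genes rose at least 1.5-fold, 510 rose and 557 fell at least 2-fold, and 1335 rose in WT cells. With at least 300 reads (9031 genes), 468 rose and 653 fell at least 1.5-fold, 89 rose and 177 fell at least 2-fold, and 522 rose and 680 fell in WT cells. With no filter beyond 1 read (15533 genes), these were 2807, 2782, 1891, 1873, 2190 and 2343. The other 7 settings kept all 6 counts within 1.5 times. The level correction turned Ctss (to -0.0363), H2-D1 (to -0.0343), H2-L (to -0.068) and Psap (to -0.0075), and it moved 67 more of the 274 gene values and 8 of 25 list medians by over their counting error or spread. The length correction moved 66 gene values and 3 list medians, and the values as deposited 80 and 3. No paired analysis was possible because each condition had 1 library, so no library could be left out either. Depth limits the 48 h library most: a floor of 3 reads there is worth more than at 24 h, and scarce genes have wide intervals.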
